A study of Mus musculus with 20 samples.

Results

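The insulin-like growth factor binding protein (IGFBP) family consists of 7 genes in the mouse, Igfbp1 to Igfbp7, and these were taken by symbol from the deposited table of counts. All 7 were found among its 46095 gene symbols, and all 7 passed the low-count filter that left 14440 genes for testing. The counts come from RNA sequencing of the livers of 20 mice aged 31 to 33 weeks, 5 in each of 4 groups. Wild-type (WT) mice and mice with a liver-specific knockout of Pck1 (Pck1-cKO, here KO) were fed a chow diet or a diet that produces non-alcoholic steatohepatitis (NASH diet), in each case for 24 weeks. Pck1 encodes cytosolic phosphoenolpyruvate carboxykinase, an enzyme of gluconeogenesis. The driver of the knockout, the strain and the sex of the mice were not stated in the sources used here. The groups are called WT chow, WT NASH, KO chow and KO NASH below, and the question was what Pck1 does in steatohepatitis brought on by diet.

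IGFBPs are secreted proteins that hold insulin-like growth factors (IGF1 and IGF2) in the circulation and in tissues, and that deliver them to or keep them from the IGF1 receptor. Hepatocytes make most circulating IGF1 and much of the circulating IGFBP1, IGFBP2 and IGFBP4. Igfbp1 is a textbook insulin target whose transcription is raised in fasting and lowered by insulin through FOXO factors, while IGFBP3 and IGFBP5 carry IGF1 in serum together with the acid-labile subunit. IGFBP5 and IGFBP7 also associate with the extracellular matrix, IGFBP6 prefers IGF2, and IGFBP7 binds IGFs only weakly.

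Library totals were 9958935 to 20601955 counts. On these totals, a level of 1 CPM (counts relative to the size of the library) would rest on about 10 to 20.6 reads. The CPM values given here use totals scaled by TMM factors of 0.683 to 1.319, which moves both ends of that range. In WT NASH replicate 4, with the factor 0.683, 43 Igfbp5 counts were 6.33 CPM. Pck1 was at 3573 ± 1139 CPM (SD, n = 5) in WT chow and 626 ± 175 in KO chow, and at 2290 ± 511 in WT NASH and 445 ± 112 in KO NASH, so that it was lower in both KO groups (log2 -2.51 and -2.36, edgeR adjusted p = 0.00011 and 6.13e-05), with residual counts. Sex, read from the Y-linked counts, was uneven: all 5 WT chow mice were male, and the females were 4 of 5 in WT NASH (all but replicate 4), replicates 3 and 5 in KO chow and replicate 2 in KO NASH. In 6 libraries (KO chow replicates 4 and 5, WT NASH replicate 4, and replicates 3, 4 and 5 of WT chow) expression, relative to the mean of all libraries, was lower for longer genes, with slopes of log2 CPM on log2 exonic length of -0.343 to -0.247, against 0.0099 to 0.194 in the other 14. These are called the negative-slope libraries. KO NASH replicates 1 and 5 were the most alike pair of any group, with a median chi-square per gene of 1.54 against 2.13 to 37.3 in the other 39 pairs of replicates. That is above the 0.455 that counting noise alone gives, and they were kept as separate samples. The 6 hepatocyte markers, such as Alb and Apoa1, summed to 47900 to 130000 CPM over all libraries. The 5 pancreatic markers, of which Prss2 and Amy2a5 were at 0, summed to 0 to 1.62 CPM. The 4 adipose markers, of which Lep was at 0, summed to 54.5 CPM in KO NASH replicate 4. They summed to 3.59 to 9.43 CPM in the other KO NASH libraries, 0.248 to 5.15 in KO chow, 0.452 to 0.969 in WT NASH and 0 to 1.32 in WT chow.

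The members lay at 5 places in the genome (GRCm38 with GENCODE M21). Igfbp1 (chromosome 11, 7197782 to 7202546, plus strand) and Igfbp3 (7206086 to 7213923, minus strand) were tail to tail, 3539 bases apart with no annotated gene between them. Igfbp2 (chromosome 1, 72824503 to 72852474, plus strand) and Igfbp5 (72857932 to 72874884, minus strand) had the same arrangement, 5457 bases apart. Igfbp4 lay elsewhere on chromosome 11 (99041244 to 99054392), Igfbp6 on chromosome 15 (102144362 to 102149511) and Igfbp7 on chromosome 5 (77349240 to 77408041).

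Igfbp1 and Igfbp2 are the members on which the results below turn, and their upstream sequences differ. The 240 bases that end 11 bases before the RefSeq start site are shown for both (GRCm38.p6, plus strand), for Igfbp1 at chr11:7197537-7197776 and for Igfbp2 at chr1:72824230-72824469. Capitals mark the known insulin response element in Igfbp1, which starts with CAAAACA and lies 108 to 91 bases before the start site, and the GC box GGGCGG in Igfbp2.

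Igfbp1: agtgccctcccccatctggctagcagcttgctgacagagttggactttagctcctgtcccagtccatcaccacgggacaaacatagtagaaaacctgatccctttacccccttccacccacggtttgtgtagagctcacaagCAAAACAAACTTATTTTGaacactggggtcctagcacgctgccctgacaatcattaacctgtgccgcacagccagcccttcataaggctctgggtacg

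Igfbp2: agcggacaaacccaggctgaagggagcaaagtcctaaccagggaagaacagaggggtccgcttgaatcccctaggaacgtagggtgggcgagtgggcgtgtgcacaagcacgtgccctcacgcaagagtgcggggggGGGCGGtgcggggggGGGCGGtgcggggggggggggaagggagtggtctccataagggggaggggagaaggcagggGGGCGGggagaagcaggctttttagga

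Both strands of 32851 RefSeq windows of this length were searched. The first letters of the element, CAAAACA, were found in 5.46% of the windows, and in the family only in that of Igfbp1. The GC box was found in 31.3% of the windows, 3 times in the first window of Igfbp2 and 4 times in that of Igfbp7, and in no window of the remaining members. No window of a member held both motifs, and a match is a description of the sequence only.

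Compared per kilobase of exon, Igfbp2 and Igfbp4 were the most abundant members in most livers, as in the stacked plot of family levels per exon length. In WT chow the mean level per kilobase was 849 ± 540 CPM (SD, n = 5) for Igfbp2, 255 ± 49.8 for Igfbp4, 117 ± 36.1 for Igfbp1, 42.0 ± 9.11 for Igfbp7, 5.94 ± 1.80 for Igfbp3, 0.908 ± 0.616 for Igfbp5 and 0.332 ± 0.256 for Igfbp6. Igfbp2 ranked first in 14 of the 20 libraries, Igfbp4 in 5 and Igfbp1 in 1. Igfbp3 lay below these and Igfbp7 in every library, and Igfbp5 and Igfbp6 were lower still. In WT chow the per-kilobase ranges of Igfbp5 and Igfbp6 overlapped and those of the other neighbours in this order did not. In KO chow the ranges of Igfbp1 (121 to 559) and Igfbp4 (167 to 322) overlapped as well.

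**Figure D1:**
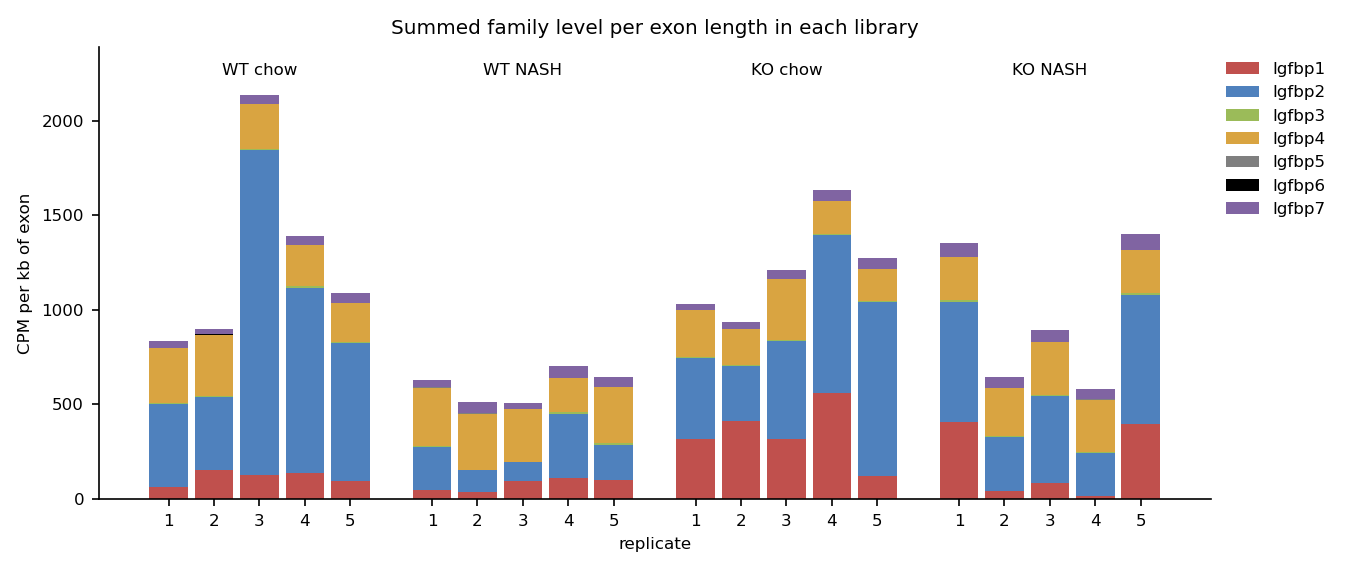
Stacked bars give the CPM per kilobase of exon of the 7 members in each of the 20 libraries, by group and replicate. The 5 WT NASH bars, at 509.6 to 704, all lie below the 5 WT chow bars, at 835 to 2133. The difference is mostly in the Igfbp2 segment. Of these bars, 3 in WT chow and 1 in WT NASH are negative-slope libraries.

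The makeup of the family varied between the groups along with the level of Igfbp2. Summed per kilobase over the 7 members, the family stood at 1270 ± 529 CPM (SD, n = 5) on chow and 601 ± 86.0 on the NASH diet in WT livers, and at 1216 ± 269 and 974 ± 385 in KO livers. Igfbp2 made up 62.6 ± 14.9% of that sum in WT chow and 30.7 ± 11.4% in WT NASH, and in KO livers 47.8 ± 15.4% on chow and 46.3 ± 4.72% on the NASH diet. Igfbp4 made up 23.3 ± 11.3% and 46.4 ± 12.7% in WT livers and 18.9 ± 6.85% and 30.1 ± 13.8% in KO livers, chow first. The share of Igfbp1 was largest in KO chow, at 29.0 ± 12.8%, against 9.98 ± 4.32% in WT chow.

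**Figure D2:**
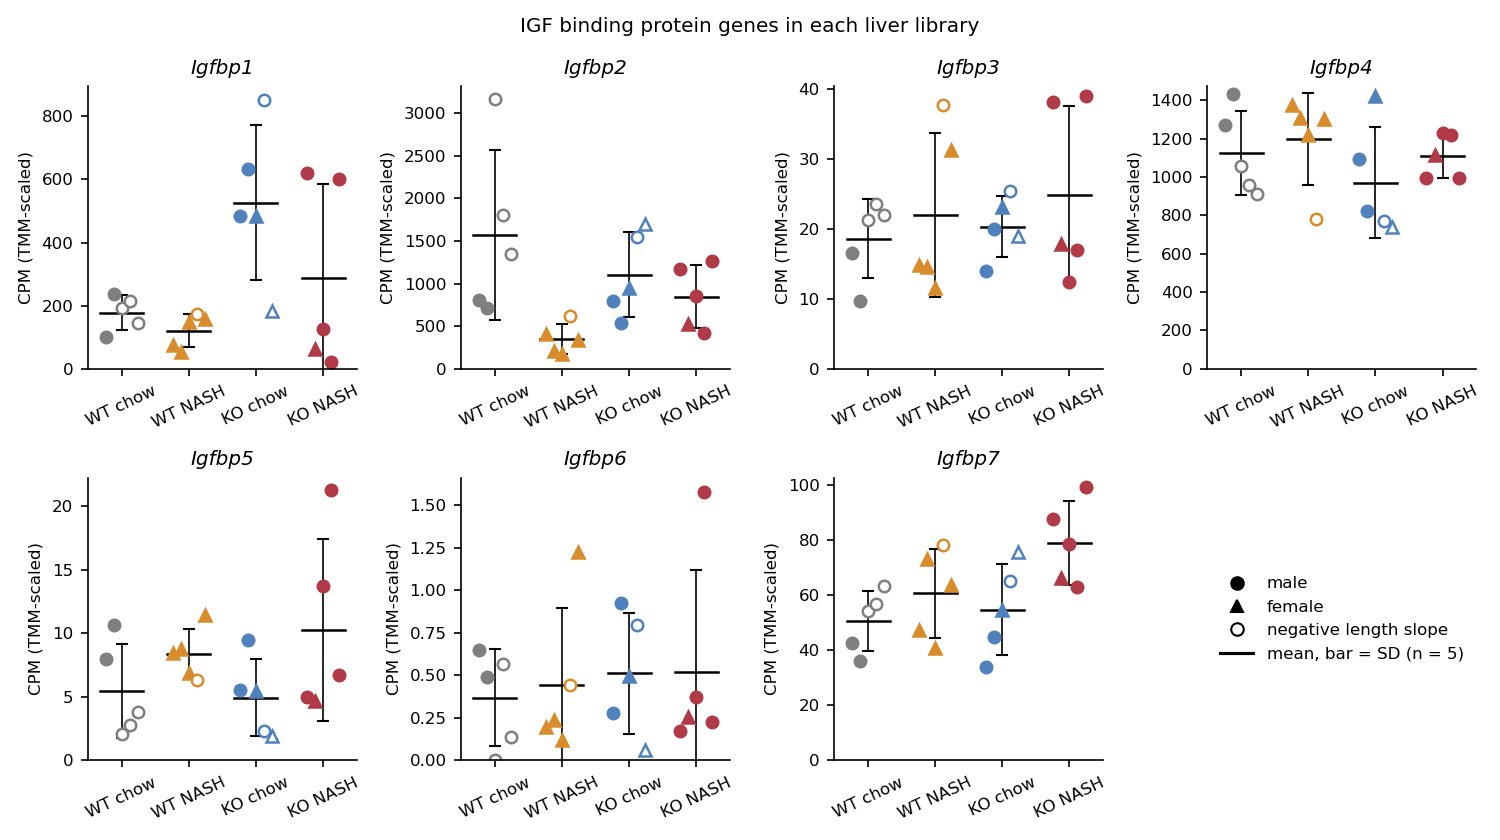
Each panel gives the CPM (TMM-scaled) of 1 member in every library, by group, with horizontal lines at the means and bars of 1 SD (n = 5). Circles are males, triangles females and open symbols the negative-slope libraries; Igfbp1 in KO NASH splits into 2 libraries at 602 and 621 CPM and 3 at 22.4 to 127, and Igfbp2 is lowest in WT NASH.

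Igfbp2, a major circulating IGFBP made by hepatocytes, fell in WT livers on the NASH diet. Its 5 WT chow libraries had 812, 711, 3168, 1806 and 1343 CPM (replicates 1 to 5). The 5 WT NASH libraries had 414, 215, 179, 620 and 339 CPM. Every WT NASH library was below every WT chow library, by a mean of 4.44-fold (log2 -2.15, SE 0.46, edgeR adjusted p = 0.00915). Igfbp2 was thus the 1 of the 7 members called in this comparison, in which edgeR called 5.93% of the genes tested (3.24% of the genes tested were called lower) and 6.15% had groups that did not overlap.

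In bulk liver, fewer cells of a type and less RNA per cell cannot be told apart. In the 3 groups with negative-slope libraries, the highest Igfbp2 values came from these: 1343 to 3168 CPM against 711 to 812 in the other WT chow libraries, 620 against 179 to 414 in WT NASH, and 1541 to 1698 against 535 to 954 in KO chow. Without the negative-slope libraries, which leaves 2 WT chow and 4 WT NASH libraries, the difference was -1.40 (log2) and the adjusted p was 0.0611. With the length slope as a term in all 20 libraries it was -1.72 and was called (edgeR adjusted p = 0.00511). With sex as a term it was -1.91 and the adjusted p 0.1, and among males alone, where WT NASH has 1 library assumed to vary like the rest, it was -1.36 with an adjusted p of 0.491. With sex and length slope as terms it was -1.55 (adjusted p = 0.0574). The call was kept in each of the 20 fits that left out a library, at -2.47 to -1.73. The red blood cell markers were also lower in WT NASH, with summed levels over 5 genes of 25 to 179 CPM against 81.4 to 245 in WT chow and 2 of the 5 called (Hbb-bs and Hbb-bt), and their part in the Igfbp2 difference was not tested. As WT chow held no female and WT NASH 1 male, diet and sex can be told apart only through that mouse and the KO groups.

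In KO livers the Igfbp2 difference between the diets was not called. KO chow had 797, 535, 954, 1541 and 1698 CPM, and KO NASH had 1169, 531, 856, 420.4 and 1263. The ranges overlapped from 535 to 1263 CPM, with 2 KO chow libraries above and 2 KO NASH libraries below the range of the other group, and the log2 difference was -0.38 (SE 0.441, 95% interval -1.30 to 0.54, adjusted p = 0.615). On the NASH diet the KO mean was 848 ± 374 CPM against 354 ± 176 in WT (SD, n = 5), a log2 difference of 1.26 (SE 0.448, 95% interval 0.33 to 2.19) that edgeR did not call (adjusted p = 0.0785). The lowest KO NASH library, replicate 4, lay below the highest WT NASH library, replicate 4, at 620 CPM, and above the other 4. DESeq2 called this difference (adjusted p = 0.0351), as did limma voom (0.00272). So did edgeR with the length slope as a term (log2 1.68, adjusted p = 0.00419) or without the negative-slope libraries (log2 1.55, adjusted p = 0.00668). With KO NASH replicates 1 and 5 averaged into 1 sample it was 1.105 and not called (edgeR adjusted p = 0.186). With sex as a term it was 1.07 (adjusted p = 0.22), with both terms 1.53 (adjusted p = 0.0267), and among males alone 0.61 (adjusted p = 0.631).

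The test of whether the diet difference of Igfbp2 differed between the genotypes did not pass the threshold. The interaction (KO against WT on the NASH diet, less KO against WT on chow) was 1.77 on the log2 scale (SE 0.628, 95% interval 0.46 to 3.08, unadjusted p = 0.0107, edgeR adjusted p = 0.362). By edgeR 0.139% of all genes were called and 0 of the 7 members; Igfbp2 alone (1 member) was under 0.05 before adjustment, and limma voom called it (log2 2.80, adjusted p = 0.00651) while DESeq2 called 0 members. For Igfbp1 the interaction was -0.32 (SE 0.891) and for Igfbp7 0.27 (SE 0.329), both with intervals that include 0.

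Igfbp1, the insulin-regulated member, had its highest mean in KO livers on chow but was not called in any of the comparisons. WT chow had 99.4, 236, 194, 214 and 147 CPM. KO chow had 483, 631, 483, 852 and 184 CPM. In 4 of the 5 KO chow libraries the level was above every WT chow library, and replicate 5, a female and a negative-slope library, lay inside the WT range. Replicate 4, the highest, was also a negative-slope library, and replicate 3, at 483 CPM, was also a female. The mean was 2.96-fold higher (log2 1.57, SE 0.644, 95% interval 0.22 to 2.91) with an unadjusted p of 0.0246 and an edgeR adjusted p of 0.175. Over the other settings the adjusted p was 0.0491 to 0.377, and it passed the threshold only with sex and length slope as terms together (log2 1.92).

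None of the 7 members was called by edgeR in KO chow against WT chow, in which 5.53% of all genes were called. Igfbp1 alone (1 member) was under 0.05 before adjustment, DESeq2 called 0 members, and the 1 member that limma voom called was Igfbp2 (adjusted p = 0.0244). The Igfbp2 means were 1105 ± 496 CPM in KO chow and 1568 ± 997 in WT chow (SD, n = 5), and the log2 difference of -0.51 (95% interval -1.43 to 0.42) was 0.0094 without the negative-slope libraries.

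**Figure D3:**
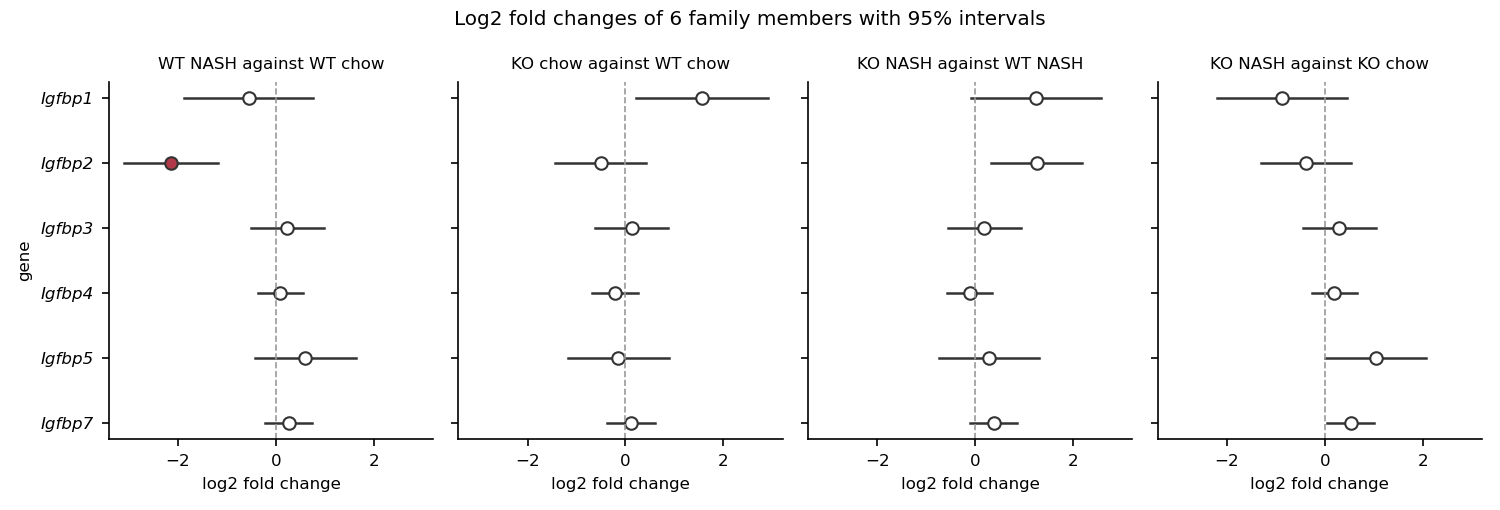
Points give the log2 fold change of 6 members in 4 comparisons, lines the 95% interval and a filled point an edgeR adjusted p under 0.05; Igfbp6 is left out for its low counts. The 1 filled point is Igfbp2 in WT NASH against WT chow, at -2.15, and the widest intervals are those of Igfbp1.

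On the NASH diet Igfbp1 was spread most widely among the KO livers. WT NASH had 75.3, 53.3, 148, 173 and 157 CPM, whereas KO NASH had 621, 63.9, 127, 22.4 and 602. KO NASH replicates 1 and 5 were far above all WT NASH libraries, replicates 2 and 3 lay inside the WT NASH range, and replicate 4 lay below it, so that the highest KO NASH library was 27.7-fold above the lowest. The log2 difference from WT NASH was 1.25 (SE 0.639, 95% interval -0.09 to 2.58, adjusted p = 0.227). It was 0.78 with replicates 1 and 5 averaged into 1 sample, 0.35 with sex as a term and 0.19 with sex and length slope as terms. Against KO chow the log2 difference of KO NASH was -0.87 (SE 0.634, adjusted p = 0.412), and WT NASH against WT chow gave -0.56 (SE 0.632, adjusted p = 0.633), which turned to 0.43 with sex as a term (adjusted p = 0.846).

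The same pair of KO NASH libraries stood apart in other genes of the lists. Their levels of Igf1r, the IGF1 receptor, were 16.0 and 13.5 CPM against 2.83 to 4.16 in the other 3 KO NASH libraries. Ppargc1a, a fasting-induced coactivator of gluconeogenesis, was at 81.2 and 78.6 CPM against 14.1 to 26.7, and Ccn2, a matricellular relative with an IGFBP-type domain, at 36.1 and 28.9 against 6.71 to 10.2. Igfals, which encodes the acid-labile subunit, was lower in them, at 23.3 and 26.7 CPM against 57.8 to 77.1. Igfbp3 was also highest in them, at 38.1 and 38.9 CPM against 12.4 to 17.9. So was Igfbp2, at 1169 and 1263 CPM against 420.4 to 855.9. What the 2 libraries share was not tested.

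Among the serum carriers, Igfbp3 and the matrix-associated Igfbp5 were low and not called. Igfbp3 averaged 18.6 ± 5.62 CPM on chow and 21.9 ± 11.7 on the NASH diet in WT livers, and 20.3 ± 4.34 and 24.9 ± 12.6 in KO livers (SD, n = 5). Its log2 differences ran from 0.13 to 0.29 over the 4 comparisons, and the 95% intervals together spanned -0.62 to 1.04. Igfbp5 had 7.94, 10.7, 2.09, 2.75 and 3.81 CPM in WT chow and 8.46, 8.78, 6.84, 6.33 and 11.4 in WT NASH. It had 5.56, 9.45, 5.495, 2.32 and 1.88 CPM in KO chow and 4.99, 4.66, 13.7, 21.3 and 6.71 in KO NASH. The negative-slope libraries were the lowest of their group in all 3 groups that hold them. KO NASH replicates 3 and 4 were the 2 highest libraries of all. Of these, replicate 4 also had the highest sum of adipose markers, whose part in the Igfbp5 value was not tested. KO NASH against KO chow gave a log2 difference of 1.04 (SE 0.493, 95% interval 0.01 to 2.07, adjusted p = 0.219).

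Igfbp4, which binds IGFs until the protease PAPP-A cleaves it, was the steadiest of the abundant members. Its means in WT livers were 1126 ± 220 CPM on chow and 1197 ± 239 on the NASH diet, and in KO livers 970.1 ± 289 and 1111 ± 115 (SD, n = 5). The 4 log2 differences lay between -0.21 and 0.20 and their 95% intervals between -0.68 and 0.66. The negative-slope libraries were the lowest in each group that holds them, with 781.5 CPM in WT NASH replicate 4 against 1221 to 1374 in the other 4.

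Igfbp7, a vascular and matrix-associated protein, had its highest mean in KO livers on the NASH diet. KO NASH had 87.7, 66.4, 78.5, 62.9 and 99.6 CPM, and KO chow had 34.0, 44.8, 54.6, 65.3 and 75.8. The 2 ranges overlapped, and the log2 difference was 0.53 (SE 0.233, 95% interval 0.04 to 1.01, adjusted p = 0.191). It was called with the length slope as a term (log2 0.81, adjusted p = 0.00868), without the negative-slope libraries (log2 0.83, adjusted p = 0.032) and by limma voom. WT chow averaged 50.7 ± 11.0 CPM and WT NASH 60.8 ± 16.1 (SD, n = 5). KO NASH against WT NASH gave 0.38 (SE 0.233, adjusted p = 0.32), which was called with the length slope as a term (adjusted p = 0.017). It was not called with sex as a term (log2 0.36, edgeR adjusted p = 0.481) or with both terms (log2 0.61, edgeR adjusted p = 0.0507). Among males alone, with 1 WT NASH library, the log2 difference was 0.10.

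Markers of liver endothelial cells, a known source of IGFBP7, were set beside these values. Their summed level over 8 genes was 244 to 384 CPM in KO NASH and 294 to 362 in KO chow, and 199 to 298 and 243 to 365 in the corresponding WT groups. Between the genotypes on the NASH diet 7 of the 8 were higher in KO. By edgeR 2 were called, Lyve1 (log2 1.62, adjusted p = 0.00866) and Kdr (log2 0.66, adjusted p = 0.0323), where 9.65% of all genes were called. With 8 genes this count is small. Females were 4 in WT NASH and 1 in KO NASH, and the 2 calls were not examined with sex as a term. Between the diets in KO livers none of the 8 was called by edgeR or had an unadjusted p under 0.05. The 8 markers of stellate cells, which make matrix in the injured liver, summed to 490 to 722 CPM in KO NASH, against 335 to 1160 in KO chow, while WT NASH had 359 to 804. Of these 8, 6 were higher in KO NASH than in KO chow (median log2 0.44) and 7 were higher than in WT NASH (median log2 0.36), with 0 called by edgeR and 1 under 0.05 before adjustment in each. Dcn, the most abundant of them, had a lower mean in KO NASH (252 CPM) than in KO chow (374) or WT NASH (279). The part of either marker list in the Igfbp7 values was not tested.

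Between the genotypes on the NASH diet edgeR called 0 of the 7 members, where it called 9.65% of all genes. Igfbp2 was under 0.05 before adjustment there (1 member), and DESeq2 and limma voom each called it. Between the diets in KO livers edgeR called 0 of the 7 members, where it called 3.29% of all genes. There 2 members, Igfbp5 and Igfbp7, were under 0.05 before adjustment, DESeq2 called none and limma voom called Igfbp7. The median log2 difference of the 7 members between the diets was 0.195 in KO livers, beside -0.0229 for all genes tested. Between the genotypes it was 0.114 on chow and 0.289 on the NASH diet, beside 0.0013 and 0.00397. In WT livers the middle member between the diets was Igfbp6, whose counts are too low for a fold change. No median is given there.

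Igfbp6, which prefers IGF2, was barely detected. It had 0 to 33 counts per library and group means of 0.370 to 0.522 CPM. The groups overlapped, and at this depth no fold change is given.

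Some members deviated from their group means along with the length slope of the library. Over the 20 libraries, Pearson's r of the deviation with the slope was -0.761 for Igfbp7, -0.646 for Igfbp2, -0.45 for Igfbp3, 0.0801 for Igfbp1, 0.215 for Igfbp6, 0.667 for Igfbp5 and 0.716 for Igfbp4. The exonic lengths of these genes were 1.21, 1.85, 3.13, 1.52, 1.11, 6.01 and 4.42 kb in the same order. Igfbp6, the shortest and the lowest in counts, thus had the sign of the long members. So did Igfbp1, at 0.0801, although it is shorter than Igfbp2. Of the neighbouring pairs, the deviations of Igfbp2 and Igfbp5 had r = -0.72 and those of Igfbp1 and Igfbp3 r = 0.537. These values describe 20 libraries that also differ in depth and sex.

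Of 35 related genes in 5 lists (ligands and receptors, complex and protease genes, other genes with an IGFBP-type domain, growth hormone signalling, and insulin- and fasting-regulated genes), 25 were tested. The diet in WT livers had 3 that rose and 0 that fell (5.93% of all genes were called), and the knockout on chow had 1 that rose and 1 that fell (5.53% of all genes). In KO NASH 1 rose and 3 fell against WT NASH (9.65% of all genes were called), and 3 rose and 0 fell against KO chow (3.29%). With 25 genes these counts are small, and nothing particular to the lists is read from them. Igf1, the growth factor itself, was lower in KO than in WT livers on the NASH diet. Igf1 was at 329, 324, 451, 386 and 325 CPM in KO NASH and at 697, 707, 604, 1307 and 884 in WT NASH. The groups did not overlap (14.1% of all genes did not in this comparison), and Igf1 fell by 1.21 on the log2 scale (SE 0.245, adjusted p = 0.00481), a call kept under every alternative run. On chow it averaged 524 ± 120.0 CPM in KO against 917 ± 243 in WT (SD, n = 5; log2 -0.81, SE 0.243, adjusted p = 0.0562), which was not called, and the interaction was -0.40 (SE 0.342, adjusted p = 0.843).

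Ghr, the growth hormone receptor that drives hepatic Igf1, was lower in KO livers on both diets. It averaged 269 ± 70.8 CPM in KO NASH against 572 ± 78.4 in WT NASH (SD, n = 5; log2 -1.09, adjusted p = 0.00812). On chow it averaged 213 ± 77.4 against 405 ± 69.0 (log2 -0.93, adjusted p = 0.0276), and that call was lost without WT chow replicate 1, 2 or 5 or KO chow replicate 1, 2 or 5, at adjusted p up to 0.0865. It was also lost with no low-count filter (0.0694) and when only the 2 groups were fitted (0.137). Igfals had 38.4 ± 20.2 CPM in KO chow against 86.1 ± 21.3 in WT chow (log2 -1.16, SE 0.386, adjusted p = 0.0837) and 49.2 ± 23.3 in KO NASH against 103 ± 41.6 in WT NASH (log2 -1.07, SE 0.385, adjusted p = 0.0819), neither called. The transcription factor genes Stat5a and Stat5b, which act downstream of GHR, rose in WT NASH against WT chow (log2 1.75 and 1.31, adjusted p = 0.00804 and 0.0172), but neither was called with sex as a term or among males alone. The Stat5a call was also lost with sex and length slope as terms, and that of Stat5b when only the 2 groups were fitted. With sex and length slope as terms the Stat5b call was kept (log2 0.93, edgeR adjusted p = 0.00255).

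**Figure D4:**
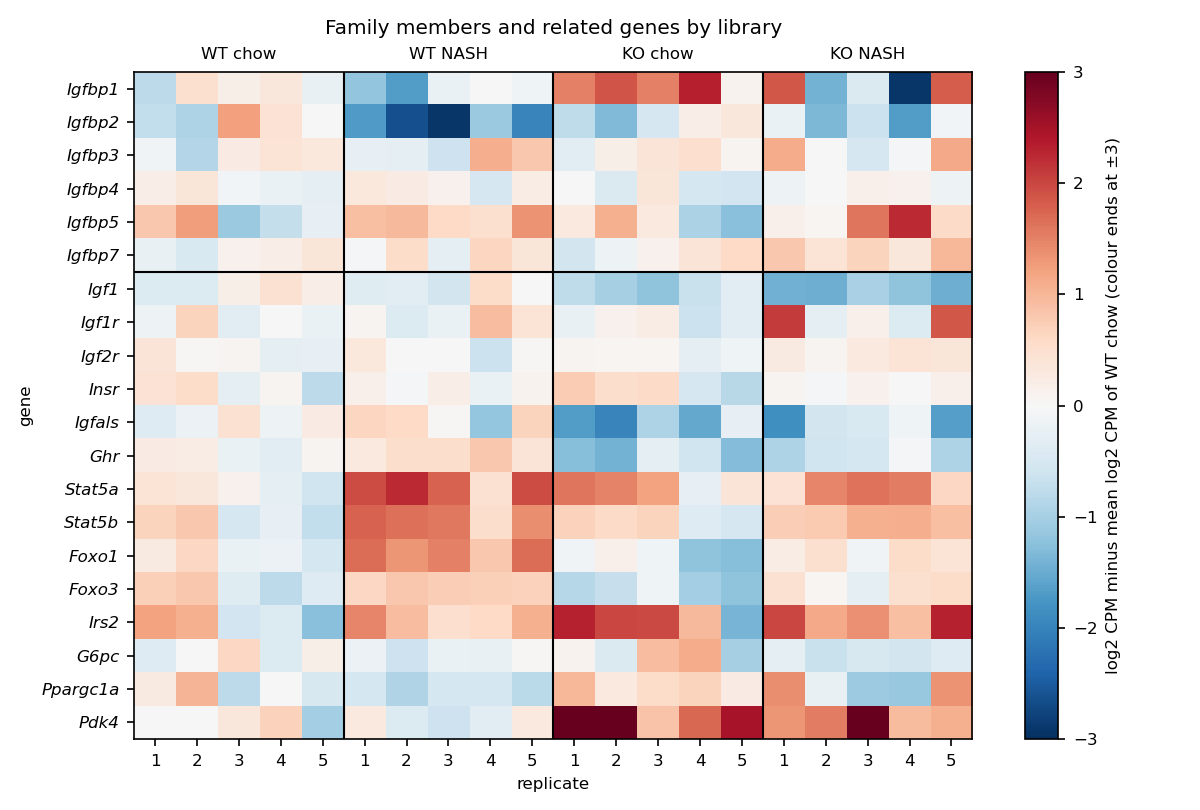
Colour gives the log2 CPM of 6 family members (above the line) and 14 related genes in each library, less the mean log2 CPM of WT chow, with the scale ending at ±3. Igf1 and Ghr are below the WT chow mean in all KO NASH libraries, and KO NASH replicates 1 and 5 are high for Igfbp1, Igf1r and Ppargc1a.

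Among the genes regulated with Igfbp1 by insulin and fasting, Pdk4, a kinase that shuts off pyruvate dehydrogenase in fasting, had the largest difference. It was at 327, 426, 22.1, 40.1 and 67.9 CPM in KO chow against 6.03 to 19.6 in WT chow, with no overlap, as for 4.91% of all genes (log2 3.76, SE 0.7, adjusted p = 0.004), and the call was kept under every alternative run. Of the 2 KO chow libraries with the most Pdk4 (replicates 1 and 2), replicate 2 was also among the 2 with the most Igfbp1 (replicates 2 and 4). Foxo1, which encodes the factor that binds insulin response elements, rose in WT NASH against WT chow (log2 1.38, adjusted p = 0.00664) and fell in KO NASH against WT NASH (log2 -1.10, adjusted p = 0.0176). Both Foxo1 calls were lost with sex as a term and among males alone, and the latter without KO NASH replicate 3 (adjusted p = 0.0516). With sex and length slope as terms together both were kept (log2 1.015 and -1.29, edgeR adjusted p = 0.00263 and 8.35e-05). Foxo3 was higher in KO NASH than in KO chow (log2 1.02, adjusted p = 0.0484), but the call was lost when any 1 KO NASH library was left out, and also without WT NASH replicate 1, 2, 3 or 5 or KO chow replicate 1, 2, 4 or 5, at adjusted p up to 0.118. It was lost as well with sex as a term (adjusted p = 0.0549), among males alone (0.162), with KO NASH replicates 1 and 5 averaged (0.0978) and with no low-count filter (0.0728).

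Of the HTRA serine protease genes in the lists, Htra1 and Htra3 were tested and Htra4, at 0 to 12 counts per library, was not. Htra1, whose product cleaves IGFBPs, rose in KO NASH against KO chow from 0.847 ± 0.171 to 2.50 ± 0.736 CPM (SD, n = 5; log2 1.57, SE 0.301, adjusted p = 0.0101) with no overlap, where 8.50% of all genes had none. That call was lost among males alone (adjusted p = 0.116), and against WT NASH, at 2.01 ± 0.516 CPM, the groups overlapped (log2 0.32, SE 0.29, adjusted p = 0.529). Htra3 rose against KO chow (log2 1.62, adjusted p = 0.0363) and against WT NASH (log2 1.33, adjusted p = 0.0439), from 1.78 ± 0.849 and 2.17 ± 1.09 to 5.49 ± 1.97 CPM. Both Htra3 calls were lost without KO chow replicate 1 or KO NASH replicate 1, 2, 4 or 5, among males alone, with KO NASH replicates 1 and 5 averaged and with no low-count filter. The call against KO chow was also lost without KO chow replicate 4 or 5 and without all negative-slope libraries (adjusted p = 0.062), with values up to 0.115 over these settings. The call against WT NASH was also lost without WT NASH replicate 1, 2, 3 or 4 and with terms for sex (adjusted p = 0.118), length slope (0.0559) or both (0.112), with values up to 0.137.

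The genes whose levels followed each member most closely were found by Pearson's r of log2 CPM over the 20 libraries among the 9009 genes that averaged 5 CPM or more. For Igfbp2 they were Il17rb (r = 0.917, or 0.856 with group means subtracted), Apoa5 (0.911 and 0.814) and Emc3 (0.855 and 0.737). For Igfbp4 they were Nlrp6 (0.918 and 0.905), B4gat1 (0.907 and 0.911) and Bmp1 (0.905 and 0.911), and for Igfbp5 Zfyve1 (0.905 and 0.873), Gsk3b (0.879 and 0.86) and Dynll2 (0.875 and 0.834). Igfbp1 was closest to Eif4ebp3 (0.806 and 0.804), Fam134b (0.806 and 0.817) and Cps1 (0.796 and 0.674). Igfbp3 and Igfbp7 had Fstl1 in common, at 0.788 and 0.845 over the 20 libraries. For Igfbp3 it was the closest gene, with Fhl1 and Plscr4 next. Igfbp7 was closest to Emp1 (0.849), followed by Fstl1 and Lgals1. These correlations are descriptions of libraries that differ in depth, sex and length slope, and those of Igfbp6 are left out for its low counts.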

How the data were processed

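Liver RNA of 20 mice was sequenced after Trizol extraction, with standard Illumina libraries, per the labels' protocols. The deposited table holds raw counts per gene symbol for each library, not normalized by the authors. The submitters' processing notes name HISAT2 2.0.4 and GRCm38; the counting program, its annotation and its strand setting were not stated in the sources used here. Columns named HFD were taken as the NASH diet groups, since the others name chow. Replicates are separate mice by title.

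Analysis used edgeR 4.0.16 in R 4.3.3. filterByExpr (minimum count 10) kept 14440 genes, which hold 99.91% of the counts. Libraries were scaled by TMM, and 1 model of the 4 group means was fitted to all 20 libraries. The test was edgeR's quasi-likelihood F test. A gene was called when its p, adjusted by Benjamini-Hochberg over all genes tested, was under 0.05. SE came from the log2 fold change and the F statistic, and 95% intervals from the t distribution with the fitted degrees of freedom. CPM values use TMM-scaled library sizes. Statements on counts cover counting error only.

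Sex was called male at 100 or more counts over 4 Y-linked genes. Gene lengths are exonic lengths from GENCODE M21, matched for 93.5% of the genes tested, and the length slope used the 9518 genes whose mean log2 CPM reached 2. Promoter windows came from RefSeq (GRCm38.p6), and the motifs were chosen from known elements.

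All 7 members, Pck1 and any called gene of the 5 related lists could be named; other genes named are list members given as values, or come from the likeness rule, which passed over predicted genes and pseudogenes. Genes that stood apart in KO NASH replicates 1 and 5 were chosen after their values were seen. Ccn2 is listed in the table as Ctgf. The members, lists and tests were chosen with earlier results of these data known. Alternatives were DESeq2 1.42.0, voom of limma 3.58.1 with quality weights, RLE scaling, scaling that leaves out the 20 most abundant genes, no filter or a filter at a mean of 5 CPM, a fit of the compared groups alone, the replicate block, terms for sex and length slope, males alone, and each library left out. Averaging KO NASH replicates 1 and 5 and leaving out the negative-slope libraries were chosen after seeing the data. The procedure was tested on simulated data.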

Additional observations from a re-analysis of the deposited data

Results flagged for a closer look

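Of the 28 sets of 5 libraries (7 members in 4 groups), 3 held a library set far apart from the other 4 by Dixon's test; chance alone gives about 1 in 20. Igfbp4 was at 781.5 CPM in WT NASH replicate 4 against 1221 to 1374 in the others. This is the only male and the only negative-slope library of its group, and the negative-slope libraries also had the lowest Igfbp4 in WT chow and KO chow. Igfbp6 was at 1.227 CPM in WT NASH replicate 5, against 0.121 to 0.441 in the others, and at 1.581 CPM in KO NASH replicate 4, against 0.171 to 0.373. Igfbp6 never exceeded 33 counts in a library. KO NASH replicate 4 also had the highest sum of adipose markers, whose part in the Igfbp6 value was not tested.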

How the results depend on the processing

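The number of members called was 1 in WT NASH against WT chow and 0 in the other comparisons. It became 0 in the former with the sex term, among males alone, with sex and length slope terms, and without the negative-slope libraries. It became 1 in KO chow against WT chow by limma voom and with sex and length slope terms. For KO NASH against WT NASH it became 1 by DESeq2, by limma voom, with both terms and without the negative-slope libraries, and 2 with the length slope term. For KO NASH against KO chow it became 1 by limma voom, with the length slope term, with both terms and without the negative-slope libraries, and in the interaction 1 by limma voom. In the fits that each left out 1 library the counts stayed at 1 and at 0.

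Of 1388 alternative values for single genes, 1268 kept direction and side of the threshold, 68 lost a call, 13 gained one and 39 changed sign, 0 of these called. The sign changes (log2) follow. In WT NASH against WT chow, Igfbp1 was 0.43 with the sex term and 0.34 with both terms, and Igfbp3 -0.17 by limma voom. Igfbp4 was -0.19 with the sex term, -0.55 in males, -0.080 with the slope term, -0.30 with both and -0.041 without the negative-slope libraries, where Igfbp5 was -0.055. In KO chow against WT chow, limma voom gave -0.15 for Igfbp3, 0.86 for Igfbp5 and -0.31 for Igfbp7. Igfbp5 was 0.039 with the sex term and 0.084 in males, Igfbp7 -0.069 in males and Igfbp2 0.0094 without the negative-slope libraries. In KO NASH against WT NASH, Igfbp5 was -0.066 by limma voom, -0.13 with the sex term, -0.074 with the slope term and -0.49 with both. Igfbp3 was -0.049 with the sex term, -0.47 in males and -0.012 with KO NASH replicates 1 and 5 averaged, and Igfbp4 0.11 with the sex term and 0.54 in males. In KO NASH against KO chow, Igfbp2 was 0.19 with the slope term, 0.10 with both and 0.15 without the negative-slope libraries, and Igfbp4 -0.0012 there. With 1 library left out, the ranges that crossed 0 were -0.054 to 0.40 for Igfbp3 in WT NASH against WT chow. In KO chow against WT chow they were -0.034 to 0.24 for Igfbp3, -0.52 to 0.25 for Igfbp5 and -0.0041 to 0.25 for Igfbp7. Those of KO NASH against WT NASH were -0.019 to 0.46 for Igfbp3 and -0.16 to 0.48 for Igfbp5. The cause was not tested.

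The titles give same-numbered mice no link beyond the number, and the deviations of such libraries correlated at -0.489 to 0.661. All negative-slope libraries were replicates 3, 4 or 5. Whether same-numbered libraries were handled together is not stated and was not tested. With the replicate block, 1 member was called in WT NASH against WT chow (Igfbp2, log2 -2.09, adjusted p = 0.00819) and 0 in the others, and the Foxo3 call in KO NASH against KO chow was lost (adjusted p = 0.0532). Without the negative-slope libraries WT chow keeps 2 libraries and WT NASH 4, and among males WT NASH keeps 1. No scaling alternative moved the median of all genes by over 0.1 (log2).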

Other observations

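With sex as a term, the male minus female log2 difference was 1.24 for Igfbp1 (SE 0.613, adjusted p = 0.703), -0.32 for Igfbp4 (SE 0.211) and 0.36 for Igfbp2 (SE 0.407). The adjusted p of the 7 members for sex was 0.703 to 0.999, and 1.02% of all genes were called by edgeR for this term.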
